A study of Mus musculus with 7 samples.

Results

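Transcripts that mark astrocytes and cells of the oligodendrocyte lineage were followed in RNA of hippocampal microglia. The 29 genes were chosen by symbol, as commonly used markers of these cells, among the 55401 genes of the count table: 14 of astrocytes, 9 of myelin and 6 of oligodendrocyte progenitors, newly formed oligodendrocytes and the lineage as a whole. The rule names symbols and uses no measured value, but the list was drawn up with earlier results of these data known. All 29 had counts in every library and all 29 passed the filter on low counts, so each was tested.

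The libraries came from the dorsal hippocampus of C57BL/6 mice aged 6 to 8 weeks, which the series describes as male. AAV-RAM-Cre was injected into the dorsal dentate gyrus of every mouse. RAM is a synthetic promoter that is switched on in recently active neurons, so Cre is directed to engram neurons. In the 4 EYFP libraries the Cre-dependent virus (AAV-Dio-EYFP) carried a fluorescent protein, and in the 3 ATG7 libraries it carried Flag-tagged Atg7 (AAV-Dio-Atg7-Flag), a gene needed for autophagy. Hippocampal cells were dissociated with enzymes after perfusion with cold saline, and microglia were enriched, not sorted one by one, with magnetic beads against CD11b. The comparison asks how these transcripts differ in the microglial fraction when engram neurons carry extra Atg7. The labels do not say whether each library is 1 mouse or a pool, and p-values measure only the spread between these libraries.

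Astrocytes take up glutamate released at synapses, buffer potassium and water around vessels, and are joined to each other by gap junctions. Oligodendrocytes arise from progenitors that carry the platelet-derived growth factor receptor Pdgfra, pass through a short newly formed stage and then wrap axons in myelin, a membrane stack held together by a few abundant proteins and lipids. Neither lineage carries CD11b, the bead target. In bulk RNA of this kind, fewer cells of a type and less RNA per cell cannot be told apart.

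Total counts ranged from 35934210 to 55217119 per library. Levels are in CPM, the count as a share of its library's total, scaled by trimmed means of M values (TMM), and a floor of 3 counts lay between 0.0543 and 0.0835 CPM. The 16 microglia markers took 2.88% to 3.49% of the counts; Csf1r, the receptor that microglia need to survive, had the highest CPM, at 5777 to 7230 CPM. The 14 choroid plexus markers took 4.74% to 7.35%, with the thyroxine carrier Ttr at 29079 to 44577 CPM. The library labelled EYFP 3 went against the description as male. The X-inactivation transcript Xist was at 938 CPM there and at 0.150 to 0.573 CPM in the other 6. For 4 Y-linked genes, the level in EYFP 3 was on average 18.6% of the gene's own mean over EYFP 1, 2 and 4. Results are therefore also given without EYFP 3. Atg7 itself, at 31.9 to 37.6 CPM over all libraries (log2 fold change -0.03, edgeR adjusted p = 0.939), checks nothing here, because the virus was directed at neurons.

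The 29 transcripts together took between 0.0836% (EYFP 4) and 0.154% (EYFP 1) of the counts. Levels of different genes can be compared only per length of transcript, here the summed exon length in GENCODE M21. On that scale the highest of the 29 was Slc7a10, a neutral amino acid transporter of astrocytes, at 33.6 CPM per kb on average over the libraries. It was followed by Slc1a3 (19.1 CPM per kb), Cnp (18.7), Aldoc (18.1), Mlc1 (16.9) and Mbp (16.5). The lowest were Enpp6 (0.111 CPM per kb), Olig2 (0.370) and Sox10 (0.461). Every one of the 29 lay below every one of the 16 microglia markers, of which Itgam, the gene of CD11b, was lowest at 56.1 CPM per kb.

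**Figure D1:**
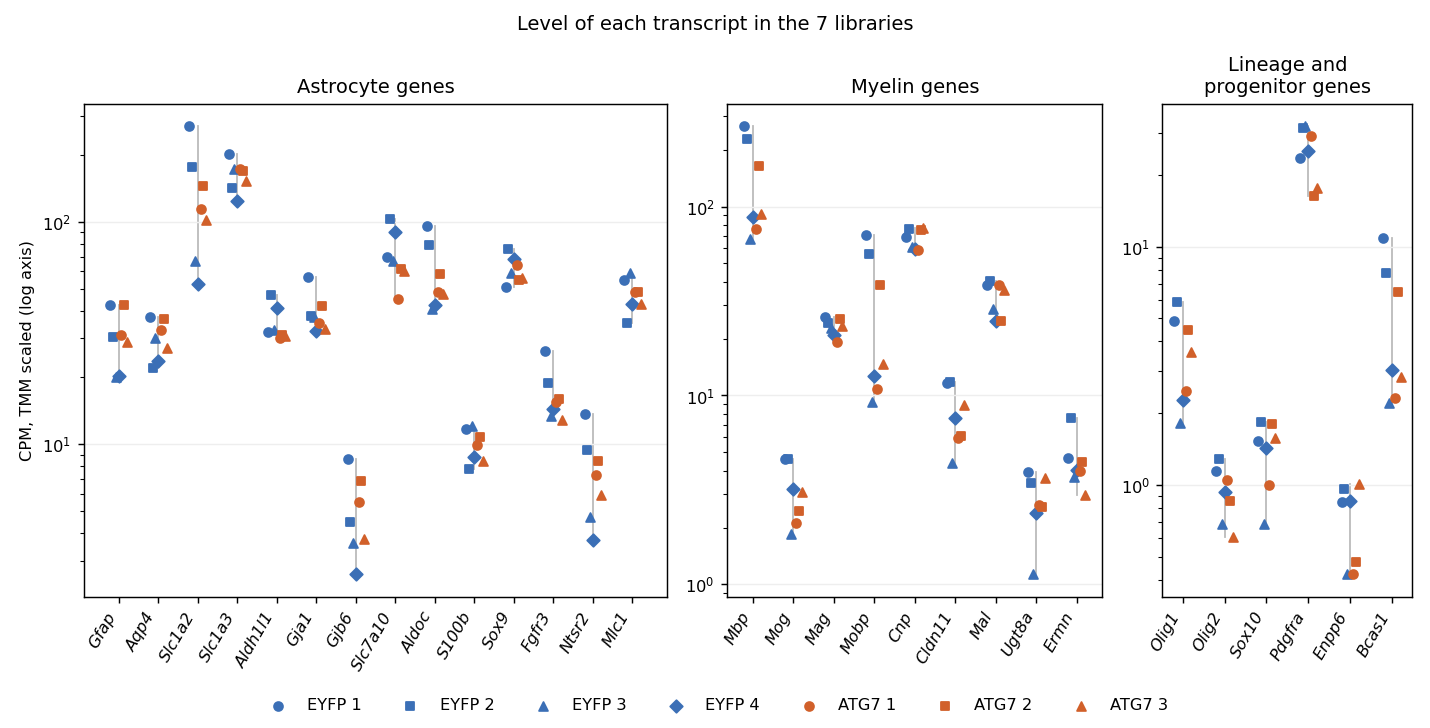
Level of each of the 29 transcripts (x axis) in CPM on a log axis, with blue symbols for the 4 EYFP and orange symbols for the 3 ATG7 libraries; the grey line joins the lowest and the highest library. Mobp spans the widest range, from 9.29 to 70.7 CPM, and Cnp the narrowest, from 58.5 to 76.8 CPM.

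None of the 29 transcripts differed between ATG7 and EYFP in edgeR's quasi-likelihood test at a Benjamini-Hochberg adjusted p under 0.05, where 0.755% of the 19199 genes tested did. At an unadjusted p under 0.05 there were 2 of the 29, both lower in ATG7 (Slc7a10 and Aldh1l1), against 5.71% of all genes in that direction and 6.27% in the other. limma-voom called 0 of the 29, where it called 1.08% of all genes, and gave 2 an unadjusted p under 0.05, against 12.6% of all genes. The Wald test of DESeq2 called 1, Slc7a10, where it called 3.24% of the 17635 genes given an adjusted p. It gave 3 of the 29 an unadjusted p under 0.05, against 7.48% of the 32982 genes given a p-value. These 32982 genes are a wider set than the 19199 tested in edgeR and limma-voom, so the shares are not on the same basis. Of the 29 fitted log2 fold changes 22 were negative and 7 positive, with a median of -0.16, against a median of -0.0037 and 50.8% negative over all genes tested. The astrocyte genes had a median of -0.13 (10 of 14 negative), the myelin genes -0.34 (7 of 9 negative) and the lineage and progenitor genes -0.28 (5 of 6 negative).

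Single EYFP libraries moved these medians. Without EYFP 1 the median of the astrocyte genes was 0.03, with 5 of 14 negative, and that of all 29 was 0.0091, with 14 negative. In that fit 5 of the 29, all astrocyte genes, had an unadjusted p under 0.05 in edgeR, as did 2847 of 18936 genes tested. Gfap, Aqp4 and Gjb6 were higher in ATG7, and Slc7a10 and Aldh1l1 lower. Without EYFP 2 the myelin median was -0.13, and without EYFP 3 it was -0.52. Without EYFP 3 the median of all 29 was -0.32, with 22 negative. In that fit 4 of the 29 had an unadjusted p under 0.05 in edgeR, as did 2301 of 18825 genes tested. Leaving out each library in turn gave no call among the 29 in edgeR. The share of all genes called was then 1.46%, 0.499%, 0.871% and 0.158% without EYFP 1 to 4, and 0.751%, 0.144% and 0.154% without ATG7 1 to 3. It was 0.234% with scaling to the microglia markers, a setting chosen after the data were seen, which gave no call among the 29 either.

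**Figure D2:**
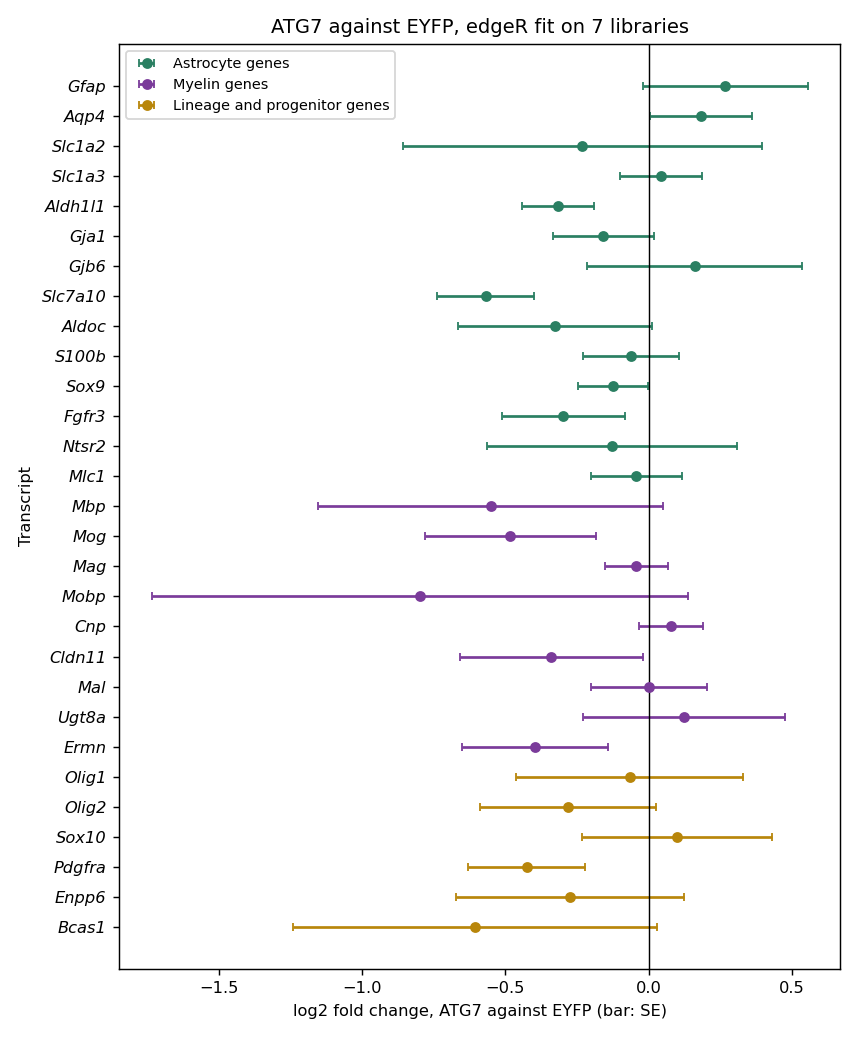
Fitted log2 fold change of ATG7 against EYFP for each transcript (points), with its SE (bars); green, astrocyte genes; purple, myelin genes; gold, lineage and progenitor genes. Values run from -0.80 for Mobp, with an SE of 0.935, to 0.27 for Gfap, with an SE of 0.287.

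The 2 astrocyte genes whose groups did not overlap were Slc7a10 and Aldh1l1. All 4 EYFP libraries lay above all 3 ATG7 libraries for both, where 4.90% of all genes tested showed that order and 11.2% did not overlap in either direction. Slc7a10 was at 69.7, 104, 66.9 and 90.1 CPM in EYFP 1 to 4, and at 44.9, 61.7 and 60.3 CPM in ATG7 1 to 3. EYFP 2 and EYFP 4 were highest and ATG7 1 lowest, and the gap between the lowest EYFP and the highest ATG7 library was smaller than the SD of either group. The group levels were 82.6 ± 17.4 CPM for EYFP (SD, n = 4) and 55.6 ± 9.29 CPM for ATG7 (SD, n = 3) (log2 fold change -0.57, SE 0.170, edgeR adjusted p = 0.217). With DESeq2 the adjusted p was 0.0210, and over all other settings tried it ranged from 0.117 to 0.475. Slc7a10 shares 377 exon bases with Lrp3 on the other strand, a gene with 2534 counts in all against 21993.

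Aldh1l1 encodes a folate enzyme that is widely used as a general astrocyte marker. Aldh1l1 was at 32.1, 46.98, 32.7 and 40.98 CPM in EYFP 1 to 4, and at 30.1, 31.1 and 30.8 CPM in ATG7 1 to 3. EYFP 2 and EYFP 4 were again highest, while EYFP 1 and EYFP 3 stood just above the ATG7 libraries, which lay close together. The levels were 38.2 ± 7.14 CPM for EYFP (SD, n = 4) and 30.7 ± 0.527 CPM for ATG7 (SD, n = 3) (log2 fold change -0.32, SE 0.125, edgeR adjusted p = 0.339). EYFP 2 and EYFP 4 were also the libraries with the most choroid plexus transcript, but ATG7 1, the lowest library for both genes, was next in choroid plexus level at 62578 CPM. All 14 choroid plexus markers had negative log2 fold changes, where 50.8% of all genes tested did. None passed the test, where 0.755% of all genes did, and none was at 0 in any library. In edgeR 6 of the 14 were lower at an unadjusted p under 0.05, against 5.71% of all genes tested. For 2 of the 14 all EYFP libraries lay above all ATG7 libraries, against 4.90% of all genes tested. The summed level of the 14 was 56131 to 74076 CPM in EYFP and 47571 to 62578 CPM in ATG7. The part of choroid plexus RNA in the values of Slc7a10 and Aldh1l1 was not tested.

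The stretches just upstream of the RefSeq starts of these 2 genes are shown because theirs were the only transcripts of the 29 whose groups were apart. They read 5′ to 3′ over 250 bases in GRCm38.p6, both on the plus strand: Slc7a10 at chr7:35186135-35186384 and Aldh1l1 at chr6:90550543-90550792. The Aldh1l1 start used by RefSeq lies inside the longer gene of GENCODE M21, which runs on chromosome 6 from 90486427 to 90600203.
Slc7a10: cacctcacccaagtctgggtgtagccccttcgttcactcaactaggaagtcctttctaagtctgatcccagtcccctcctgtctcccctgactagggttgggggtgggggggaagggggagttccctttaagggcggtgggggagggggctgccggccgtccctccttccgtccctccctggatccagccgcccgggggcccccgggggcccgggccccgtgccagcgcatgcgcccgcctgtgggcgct
Aldh1l1: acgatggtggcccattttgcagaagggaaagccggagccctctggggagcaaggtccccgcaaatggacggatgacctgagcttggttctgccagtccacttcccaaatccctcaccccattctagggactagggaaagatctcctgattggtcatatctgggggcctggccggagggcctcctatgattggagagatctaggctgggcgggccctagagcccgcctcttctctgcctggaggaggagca
Capitals would mark a SOX core (ACAAAG or ACAATG), a half-site of nuclear factor 1 (TTGGCA) or an E-box (CAGCTG or CATCTG), each searched on both strands; neither stretch holds one. Over all 32851 stretches of this length in the table, 25.2% hold the SOX core, 12.3% the half-site and 25.5% the E-box.

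Among the glutamate transporters, Slc1a2 (GLT-1), which clears most synaptic glutamate, varied far more than Slc1a3 (GLAST). Slc1a2 was at 271, 177, 67.2 and 52.4 CPM in EYFP 1 to 4, and at 115, 146 and 102 CPM in ATG7 1 to 3. EYFP 1 and EYFP 2 were highest, EYFP 3 and EYFP 4 lowest, and the ATG7 libraries lay between these pairs. The groups overlapped widely, at 142 ± 102 CPM for EYFP (SD, n = 4) and 121 ± 22.3 CPM for ATG7 (SD, n = 3) (log2 fold change -0.23, SE 0.626, edgeR adjusted p = 0.932), and without EYFP 1 the log2 fold change was 0.29. Slc1a3 was at 202, 142, 173 and 125 CPM in EYFP 1 to 4, and at 173, 169.9 and 154 CPM in ATG7 1 to 3. Its highest library was 1.62 times its lowest, against 5.16 times for Slc1a2 (log2 fold change 0.04, SE 0.143, edgeR adjusted p = 0.944). The CPM ratio of Slc1a2 to Slc1a3 was 1.34, 1.25, 0.387 and 0.419 for EYFP 1 to 4, and 0.665, 0.856 and 0.665 for ATG7 1 to 3. The balance of both transporters therefore differed more among EYFP libraries than between the groups.

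The gap junction genes showed the same contrast between a variable and a steadier member. Gja1 encodes connexin 43, the main astrocyte connexin. Gja1 was at 56.6, 37.9, 37.3 and 32.4 CPM in EYFP 1 to 4, and at 35.1, 42.2 and 33.1 CPM in ATG7 1 to 3. EYFP 1 stood above the other 6, which lay between 32.4 and 42.2 CPM (log2 fold change -0.16, SE 0.177, edgeR adjusted p = 0.797). Gjb6 encodes connexin 30. Gjb6 was at 8.598, 4.49, 3.61 and 2.60 CPM in EYFP 1 to 4, and at 5.52, 6.82 and 3.76 CPM in ATG7 1 to 3. EYFP 1 and ATG7 2 were highest and EYFP 4 lowest, a range of 3.31 times, and the groups overlapped (log2 fold change 0.16, SE 0.376, edgeR adjusted p = 0.917).

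Aqp4, the water channel of astrocyte endfeet, and Mlc1, a membrane protein found beside it, had narrower ranges than Gjb6. Aqp4 was at 37.5, 22.1, 30.1 and 23.7 CPM in EYFP 1 to 4, and at 32.6, 36.6 and 27.2 CPM in ATG7 1 to 3. EYFP 1 and ATG7 2 were highest and the groups overlapped (log2 fold change 0.18, SE 0.178, edgeR adjusted p = 0.757). Mlc1 was at 55.1, 35.3, 59.2 and 42.7 CPM in EYFP 1 to 4, and at 48.5, 48.4 and 43.1 CPM in ATG7 1 to 3. Here EYFP 3 and EYFP 1 were highest and EYFP 2 lowest, with all ATG7 libraries inside the EYFP range (log2 fold change -0.04, SE 0.159, edgeR adjusted p = 0.951). S100b, a calcium-binding protein that ependymal cells also make, had the same 2 libraries highest. S100b was at 11.8, 7.76, 12.1 and 8.78 CPM in EYFP 1 to 4, and at 9.89, 10.8 and 8.38 CPM in ATG7 1 to 3. Its ATG7 libraries lay inside the EYFP range (log2 fold change -0.06, SE 0.168, edgeR adjusted p = 0.932). EYFP 3 also had the highest summed level of the 10 ependymal markers, 371.5 CPM against 280.3 to 351.1 CPM in the other 6, while EYFP 1, also high for Mlc1 and S100b, was among the lowest at 280.6 CPM. Of those markers 9 of 10 had negative log2 fold changes, where 50.8% of all genes tested did. None passed, where 0.755% of all genes did, and none was at 0. Their summed level was 280.6 to 371.5 CPM in EYFP and 280.3 to 328.4 CPM in ATG7. Foxj1, the factor that builds motile cilia, had their highest CPM, at 106.9 to 141.3, and their part in the values of Mlc1 and S100b was not tested.

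Gfap, the intermediate filament that rises in reactive astrocytes, did not pass the test. Gfap was at 42.6, 30.5, 20.1 and 20.3 CPM in EYFP 1 to 4, and at 31.2, 42.3 and 28.8 CPM in ATG7 1 to 3. EYFP 1 and ATG7 2 were highest, EYFP 3 and EYFP 4 lowest, and the groups overlapped (log2 fold change 0.27, SE 0.287, edgeR adjusted p = 0.788). Without EYFP 1 its log2 fold change was 0.53, the largest over the libraries left out. Aldoc, the brain form of the glycolytic enzyme aldolase, followed the pattern of Slc1a2. Aldoc was at 96.3, 79.1, 40.5 and 42.4 CPM in EYFP 1 to 4, and at 48.5, 58.5 and 47.3 CPM in ATG7 1 to 3. EYFP 1 and EYFP 2 stood above the rest, and the ATG7 libraries lay between them and the other EYFP libraries (log2 fold change -0.33, SE 0.340, edgeR adjusted p = 0.783), and its log2 fold change was -0.070 without EYFP 1.

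Fgfr3, a fibroblast growth factor receptor, and Ntsr2, a neurotensin receptor, were highest in EYFP 1 and then EYFP 2 as well. Fgfr3 was at 26.3, 18.9, 13.4 and 14.4 CPM in EYFP 1 to 4, and at 15.6, 15.99 and 12.9 CPM in ATG7 1 to 3. The remaining 5 libraries lay between 12.9 and 15.99 CPM (log2 fold change -0.30, SE 0.215, edgeR adjusted p = 0.657), and without EYFP 1 the log2 fold change was -0.071. Ntsr2 was at 13.7, 9.48, 4.698 and 3.703 CPM in EYFP 1 to 4, and at 7.32, 8.39 and 5.89 CPM in ATG7 1 to 3. The range of 3.69 times lay within EYFP, and the ATG7 libraries sat inside it (log2 fold change -0.13, SE 0.437, edgeR adjusted p = 0.946). Sox9, a transcription factor of astrocytes that epithelial cells of the brain can also carry, did not share that order. Sox9 was at 50.8, 75.6, 59.4 and 68.4 CPM in EYFP 1 to 4, and at 64.1, 54.97 and 55.9 CPM in ATG7 1 to 3. EYFP 2 and EYFP 4 were highest, as for Slc7a10 and Aldh1l1, and EYFP 1 was lowest (log2 fold change -0.12, SE 0.122, edgeR adjusted p = 0.755).

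Myelin transcripts differed in how far they ranged. Mbp, myelin basic protein, and Mobp, a related basic protein of myelin, are known for messenger RNA that is carried into the processes of oligodendrocytes and translated there. Mbp was at 267, 227, 67.2 and 88.2 CPM in EYFP 1 to 4, and at 76.4, 164 and 91.2 CPM in ATG7 1 to 3. EYFP 1 and EYFP 2 were highest, ATG7 2 was next, and the other 4 libraries lay between 67.2 and 91.2 CPM. The groups overlapped, at 162 ± 99.3 CPM for EYFP (SD, n = 4) and 111 ± 47.04 CPM for ATG7 (SD, n = 3) (log2 fold change -0.55, SE 0.602, edgeR adjusted p = 0.797). Mobp was at 70.7, 56.3, 9.28 and 12.8 CPM in EYFP 1 to 4, and at 10.8, 38.3 and 14.7 CPM in ATG7 1 to 3. The order of the top 3 libraries was that of Mbp, and the range of 7.62 times was the widest of the 29 (log2 fold change -0.80, SE 0.935, edgeR adjusted p = 0.815). Without EYFP 1 the log2 fold change was -0.20 for Mbp and -0.29 for Mobp, and without ATG7 2 it was -0.95 and -1.54. Among tested genes with a mean of at least 1 CPM the median range was 1.36 times, and 1.24% had a range of over 5 times.

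Mag, an adhesion protein of the inner myelin membrane, and Cnp, an enzyme of non-compact myelin, were nearly level. Mag was at 25.9, 24.1, 22.7 and 20.9 CPM in EYFP 1 to 4, and at 19.3, 25.5 and 23.2 CPM in ATG7 1 to 3. The highest library exceeded the lowest only 1.34 times. EYFP 1, ATG7 2 and EYFP 2 were highest, as for Mbp, but here ATG7 2 stood above EYFP 2 and close to EYFP 1 (log2 fold change -0.04, SE 0.110, edgeR adjusted p = 0.924). Cnp was at 69.4, 75.9, 61.05 and 59.3 CPM in EYFP 1 to 4, and at 58.5, 74.7 and 76.8 CPM in ATG7 1 to 3. ATG7 3 was highest and ATG7 1 lowest (log2 fold change 0.08, SE 0.112, edgeR adjusted p = 0.851). Some exon bases of Cnp, 154 in number, are shared with Dnajc7 on the other strand. Dnajc7 had 69420 counts in all against 21221 for Cnp, and the strand setting of the counting is not given in the sources used here. The CPM ratio of Mbp to Mag was 10.3, 9.43, 2.96 and 4.22 for EYFP 1 to 4, and 3.96, 6.44 and 3.93 for ATG7 1 to 3. The proportion of Mbp to Mag thus differed from library to library. The part of other cells in the values of these myelin genes was not tested.

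Upstream stretches of Mobp and Cnp are shown because these 2 had the widest and the narrowest range of the 29. They cover 250 bases 5′ to 3′ before the RefSeq start in GRCm38.p6, on the plus strand: Mobp at chr9:120149492-120149741 and Cnp at chr11:100574689-100574938. Capitals mark the SOX core and the nuclear factor 1 half-site as spelled above, on either strand; SOX10, of the SOX family, is the lineage factor of oligodendrocytes.
Mobp: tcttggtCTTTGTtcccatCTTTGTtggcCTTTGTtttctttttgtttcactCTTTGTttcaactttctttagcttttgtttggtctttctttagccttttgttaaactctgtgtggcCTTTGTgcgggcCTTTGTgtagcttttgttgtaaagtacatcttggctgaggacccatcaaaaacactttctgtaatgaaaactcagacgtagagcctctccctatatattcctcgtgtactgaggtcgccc
Cnp: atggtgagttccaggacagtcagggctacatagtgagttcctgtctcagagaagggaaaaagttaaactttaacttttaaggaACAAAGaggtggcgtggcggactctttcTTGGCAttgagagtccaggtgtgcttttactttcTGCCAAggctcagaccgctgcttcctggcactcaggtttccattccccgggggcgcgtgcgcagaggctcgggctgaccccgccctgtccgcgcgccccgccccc
Mobp holds 6 SOX cores, all as CTTTGT, beginning at positions -243, -231, -221, -198, -132 and -120 counted from the start, and no other of the 32851 stretches holds as many. Cnp holds 1 SOX core at -167 and half-sites at -139 and -105. RefSeq stretches were found for 23 of the 29 genes. The SOX core was present in 6 of them (Cnp, Enpp6, Ermn, Mag, Mobp and Olig2), the half-site in 3 (Aldoc, Cnp and S100b) and the E-box in 2 (Fgfr3 and Pdgfra). A match is a description of letters and not evidence of binding.

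The remaining myelin genes lay between these extremes. Mog, the myelin surface antigen, is on the outermost layer of the sheath. Mog was at 4.61, 4.598, 1.84 and 3.21 CPM in EYFP 1 to 4, and at 2.12, 2.44 and 3.07 CPM in ATG7 1 to 3. EYFP 1 and EYFP 2 were highest and EYFP 3 lowest, around all ATG7 libraries (log2 fold change -0.48, SE 0.298, edgeR adjusted p = 0.585). Cldn11, the tight junction protein of myelin, had the same 2 libraries highest. Cldn11 was at 11.6, 11.8, 4.41 and 7.603 CPM in EYFP 1 to 4, and at 5.99, 6.11 and 8.86 CPM in ATG7 1 to 3. The ATG7 libraries lay inside the EYFP range (log2 fold change -0.34, SE 0.320, edgeR adjusted p = 0.748).

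Ermn, a cytoskeletal protein of mature oligodendrocytes, was highest in EYFP 2. Ermn was at 4.64, 7.56, 3.72 and 4.02 CPM in EYFP 1 to 4, and at 3.97, 4.44 and 2.97 CPM in ATG7 1 to 3. The other 6 lay between 2.97 and 4.64 CPM (log2 fold change -0.40, SE 0.255, edgeR adjusted p = 0.604). Mal, a proteolipid of myelin and of epithelia, did not follow Mbp in ATG7. Mal was at 38.5, 40.5, 28.8 and 24.7 CPM in EYFP 1 to 4, and at 38.5, 24.8 and 36.2 CPM in ATG7 1 to 3. ATG7 2 was among the lowest here, and the groups stood at 33.1 ± 7.62 CPM for EYFP (SD, n = 4) and 33.2 ± 7.31 CPM for ATG7 (SD, n = 3) (log2 fold change -0.000101, SE 0.203, edgeR adjusted p = 0.9998). Ugt8a makes the galactolipids of myelin, and its lowest library, EYFP 3, held 51 counts. Ugt8a was at 3.93, 3.44, 1.13 and 2.38 CPM in EYFP 1 to 4, and at 2.65, 2.56 and 3.65 CPM in ATG7 1 to 3. The ATG7 libraries lay inside the EYFP range (log2 fold change 0.12, SE 0.352, edgeR adjusted p = 0.934).

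Olig1 and Olig2, basic helix-loop-helix factors of the lineage, and Sox10, the factor that drives myelin genes, were rare. Their counts ran from 82 to 268 for Olig1, from 28 to 59 for Olig2 and from 31 to 99 for Sox10, so that counting error is part of their spread. Olig1 was at 4.86, 5.84, 1.82 and 2.28 CPM in EYFP 1 to 4, and at 2.47, 4.47 and 3.61 CPM in ATG7 1 to 3. EYFP 2 and EYFP 1 were highest and EYFP 3 lowest (log2 fold change -0.07, SE 0.397, edgeR adjusted p = 0.972). Olig2 was at 1.15, 1.29, 0.687 and 0.932 CPM in EYFP 1 to 4, and at 1.05, 0.855 and 0.602 CPM in ATG7 1 to 3. The highest and lowest libraries belonged to different groups, but the ranges overlapped (log2 fold change -0.28, SE 0.307, edgeR adjusted p = 0.788). Sox10 was at 1.53, 1.83, 0.687 and 1.42 CPM in EYFP 1 to 4, and at 0.999, 1.801 and 1.57 CPM in ATG7 1 to 3. EYFP 3 was lowest and EYFP 2 and ATG7 2 highest (log2 fold change 0.10, SE 0.332, edgeR adjusted p = 0.944).

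Pdgfra, the receptor of progenitors, which fibroblasts of the meninges and vessels also carry, had the smallest edgeR p-value of the lineage and progenitor genes. Pdgfra was at 23.5, 31.6, 32.1 and 25.2 CPM in EYFP 1 to 4, and at 29.1, 16.3 and 17.6 CPM in ATG7 1 to 3. ATG7 2 and ATG7 3 lay below every EYFP library and ATG7 1 did not, so the groups overlapped (log2 fold change -0.43, SE 0.205, edgeR adjusted p = 0.462). Without ATG7 1 the adjusted p of Pdgfra in edgeR was 0.0616, with a log2 fold change of -0.73. The 8 fibroblast and meningeal markers were at 0 in no library, 4 had negative log2 fold changes, and their summed level was 590.4 to 861.2 CPM in EYFP and 630.8 to 718.1 CPM in ATG7, of which Igfbp2, a binding protein of insulin-like growth factors, made up 539.5 to 798.0 CPM. None of these markers passed, where 0.755% of all genes tested did and 50.8% had negative log2 fold changes. The part of fibroblast and meningeal RNA in the values of Pdgfra was not tested.

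Bcas1 and Enpp6 mark newly formed oligodendrocytes. Bcas1 was at 10.8, 7.76, 2.22 and 3.04 CPM in EYFP 1 to 4, and at 2.32, 6.48 and 2.84 CPM in ATG7 1 to 3. EYFP 1, EYFP 2 and ATG7 2 were the highest 3 libraries, as for Mbp and Mobp, over a range of 4.89 times (log2 fold change -0.61, SE 0.636, edgeR adjusted p = 0.784). The log2 fold change of Bcas1 was -0.15 without EYFP 1 and -1.20 without ATG7 2. Enpp6 was at 0.846, 0.959, 0.421 and 0.858 CPM in EYFP 1 to 4, and at 0.424, 0.473 and 1.01 CPM in ATG7 1 to 3. This was the rarest of the 29, with 17 to 47 counts per library, and ATG7 3 was highest (log2 fold change -0.27, SE 0.398, edgeR adjusted p = 0.851). Its log2 fold change ran from -0.78 without ATG7 3 to -0.062 without ATG7 1.

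**Figure D3:**
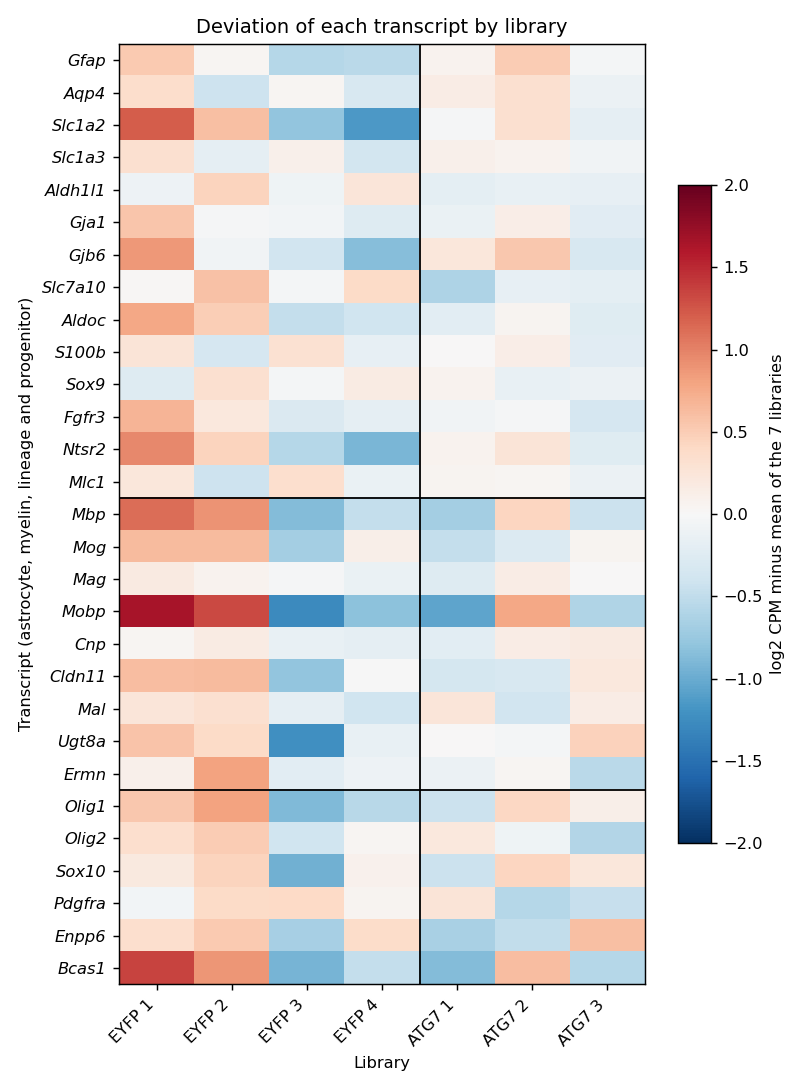
Each row is a transcript and each column a library; colour gives the log2 CPM minus the mean of the 7 libraries for that transcript, red above and blue below, with lines between the groups and between the 3 sets of genes. Mobp, Mbp, Bcas1 and Slc1a2 are red in EYFP 1 and EYFP 2, while Mag and Cnp stay pale across the row.

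Across the 29, EYFP 1 was the highest library for 15 and EYFP 2 for 9, and none was highest in EYFP 4, ATG7 1 or ATG7 2. EYFP 1 and EYFP 2 were the top 2 libraries for 13 of the 29, namely 4 astrocyte genes (Slc1a2, Aldoc, Fgfr3 and Ntsr2), 6 myelin genes (Mbp, Mog, Mobp, Cldn11, Mal and Ermn) and 3 lineage genes (Olig1, Olig2 and Bcas1). Among all tested genes with a mean of at least 1 CPM, 3.502% had these 2 libraries on top and 11.8% had EYFP 1 highest. This pair of libraries was picked out after the values were seen. Of the 29, 27 reach that mean, and among them 12 had these libraries on top and 15 had EYFP 1 highest. A range of over 2 times was found for 16 of these 27, and for 12.2% of those tested genes.

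The mean log2 CPM of the astrocyte genes was 5.47, 5.13, 4.83 and 4.69 for EYFP 1 to 4, and 4.97, 5.15 and 4.82 for ATG7 1 to 3. The means were 5.03 ± 0.344 (SD, n = 4) and 4.98 ± 0.161 (SD, n = 3). For the myelin genes the libraries were at 4.47, 4.48, 3.31 and 3.67 in EYFP and at 3.58, 3.96 and 3.85 in ATG7, with means of 3.98 ± 0.589 (SD, n = 4) and 3.80 ± 0.194 (SD, n = 3). The lineage and progenitor genes were at 1.84, 1.97, 0.85 and 1.31 in EYFP and at 1.09, 1.45 and 1.28 in ATG7, with means of 1.49 ± 0.516 (SD, n = 4) and 1.27 ± 0.180 (SD, n = 3). In all 3 sets the ATG7 libraries lay inside the EYFP range, and the difference of the means was smaller than the SD within EYFP.

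Other cell types moved with this pattern in part. The mean log2 CPM of the 18 neuron markers was 2.19, 1.20, 0.26 and 0.54 for EYFP 1 to 4, and 0.75, 1.04 and 0.55 for ATG7 1 to 3, with EYFP 1 and EYFP 2 again highest. Of the 17 tested, 16 had negative log2 fold changes and none passed; their summed level was 133.6 to 315.2 CPM in EYFP and 136.7 to 170.0 CPM in ATG7, and Gad2 was at 0 in ATG7 3. Dlg4, a scaffold of the postsynapse, had the highest CPM, at 49.0 to 67.3 CPM. The 15 dissociation genes, immediate-early and heat-shock genes among which Jun had the highest CPM at 556.8 to 912.7 CPM, ran the other way: their summed level was 2924 and 2921 CPM in EYFP 1 and EYFP 2, 3631 and 4485 CPM in EYFP 3 and EYFP 4, and 3821 to 4114 CPM in ATG7. Of these 15 none passed and 14 had positive log2 fold changes. The 16 microglia markers had a mean log2 CPM of 10.3 to 10.6, with none passing and 12 positive. None of the 16 endothelial and mural markers passed and 15 were positive; the glucose transporter Slc2a1 had their highest CPM, at 211.1 to 315.5. None of the 8 border macrophage markers passed and 5 were positive; the mannose receptor Mrc1 had their highest CPM, at 245.4 to 319.0. At an unadjusted p under 0.05 in edgeR there were 6 choroid plexus markers, all lower in ATG7. The neuron, ependymal, fibroblast and meningeal, and border macrophage lists each held 1, lower in ATG7. The endothelial and mural list and the microglia list each held 1, higher in ATG7, and the dissociation genes 0. Over all genes tested, 5.71% were lower and 6.27% higher at that threshold. Of all genes tested 0.755% passed and 50.8% had negative log2 fold changes. With so small a share passing, no call in a list of this size says little. The part of neuronal RNA and of dissociation in the glial values was not tested.

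**Figure D4:**
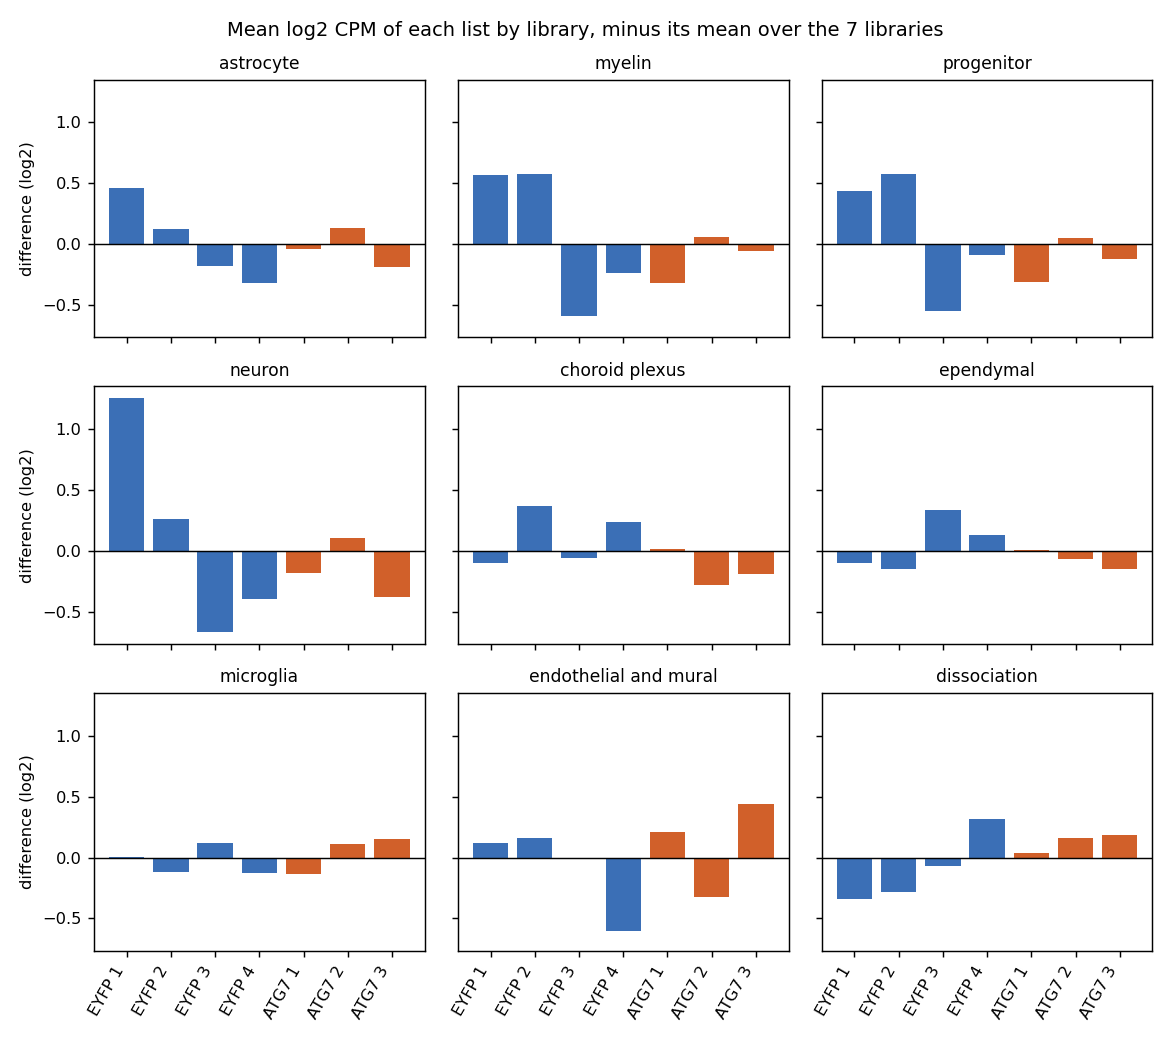
Mean log2 CPM of 9 gene lists in each library, shown as the difference from the list's own mean over the 7 libraries (y axis, log2); blue bars, EYFP; orange bars, ATG7. The astrocyte, myelin, progenitor and neuron lists are highest in EYFP 1 or EYFP 2, and the dissociation list is lowest in both.

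Further genes of each lineage were read from lists written from general knowledge. Of 30 other astrocyte genes, all tested, none passed in edgeR, and 26 had negative log2 fold changes with a median of -0.18. An unadjusted p under 0.05 was found for 5 of them, 4 lower and 1 higher in ATG7. Over all genes tested, 5.71% were lower and 6.27% higher at that threshold. Among the 30 the smallest p was that of Ntrk2, a neurotrophin receptor, at 409 ± 35.97 CPM for EYFP (SD, n = 4) and 337 ± 30.8 CPM for ATG7 (SD, n = 3) (log2 fold change -0.28, SE 0.0959, edgeR adjusted p = 0.264). Ntrk2 was the only 1 of the 30 whose groups did not overlap, with EYFP above ATG7, an order shown by 4.90% of all genes tested. Of 27 other myelin genes 26 were tested and none passed, with 1 lower at an unadjusted p under 0.05, 19 negative and a median of -0.09. Nfasc, an adhesion protein of the node of Ranvier, had the smallest p, at 129 ± 18.7 CPM for EYFP (SD, n = 4) and 105 ± 2.85 CPM for ATG7 (SD, n = 3) (log2 fold change -0.30, SE 0.105, edgeR adjusted p = 0.280). Of 24 other progenitor genes 18 were tested and none passed, with 2 higher at an unadjusted p under 0.05, 9 negative and a median of -0.02. Fyn, a kinase of early myelination that immune cells also carry, had the smallest p, at 23.99 ± 1.196 CPM for EYFP (SD, n = 4) and 27.5 ± 0.768 CPM for ATG7 (SD, n = 3) (log2 fold change 0.19, SE 0.0756, edgeR adjusted p = 0.332). The same 3 lists had no call with DESeq2 or limma-voom. The share called was 0.755% of all genes in edgeR, 1.08% in limma-voom and 3.24% of those given an adjusted p in DESeq2. Negative log2 fold changes made up 50.8% of all genes tested in edgeR. In the other myelin list 1 gene had groups that did not overlap, with EYFP above ATG7. The other progenitor list also held 1, with ATG7 above EYFP, and 11.2% of all genes did not overlap in either direction.

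Genes used as markers of reactive astrocytes gave calls. Of 28 such genes 25 were tested, 3 were higher in ATG7 and none lower, where 0.688% of all genes were called higher and 0.0677% lower; 8 had an unadjusted p under 0.05 (7 higher, 1 lower, against 6.27% and 5.71% of all genes) and the median was 0.15. C3, the central complement component, was at 16.6 ± 3.83 CPM for EYFP (SD, n = 4) and 62.2 ± 7.003 CPM for ATG7 (SD, n = 3) (log2 fold change 1.91, SE 0.168, edgeR adjusted p = 0.00251). Gbp2, an interferon-induced GTPase, was at 18.4 ± 3.61 CPM for EYFP (SD, n = 4) and 40.6 ± 3.12 CPM for ATG7 (SD, n = 3) (log2 fold change 1.14, SE 0.137, edgeR adjusted p = 0.00705). Psmb8, a subunit of the immunoproteasome, was at 41.9 ± 2.705 CPM for EYFP (SD, n = 4) and 58.2 ± 6.25 CPM for ATG7 (SD, n = 3) (log2 fold change 0.47, SE 0.0857, edgeR adjusted p = 0.0303), and lost its call without EYFP 2, EYFP 3, EYFP 4, ATG7 2 or ATG7 3 (adjusted p of 0.0550 to 0.177), and when scaled to the microglia markers (0.298). C3 and Gbp2 passed in each of these. Without EYFP 3 the chemokine Cxcl10 passed in place of Psmb8 (adjusted p = 0.0180), and without ATG7 2 the heat-shock protein Hspb1 did (0.0396). The groups did not overlap for 4 of the 25, all with ATG7 above EYFP, where 11.2% of all genes tested did not overlap in either direction. C3, Gbp2 and Psmb8 are also known in microglia and macrophages.

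**Figure D5:**
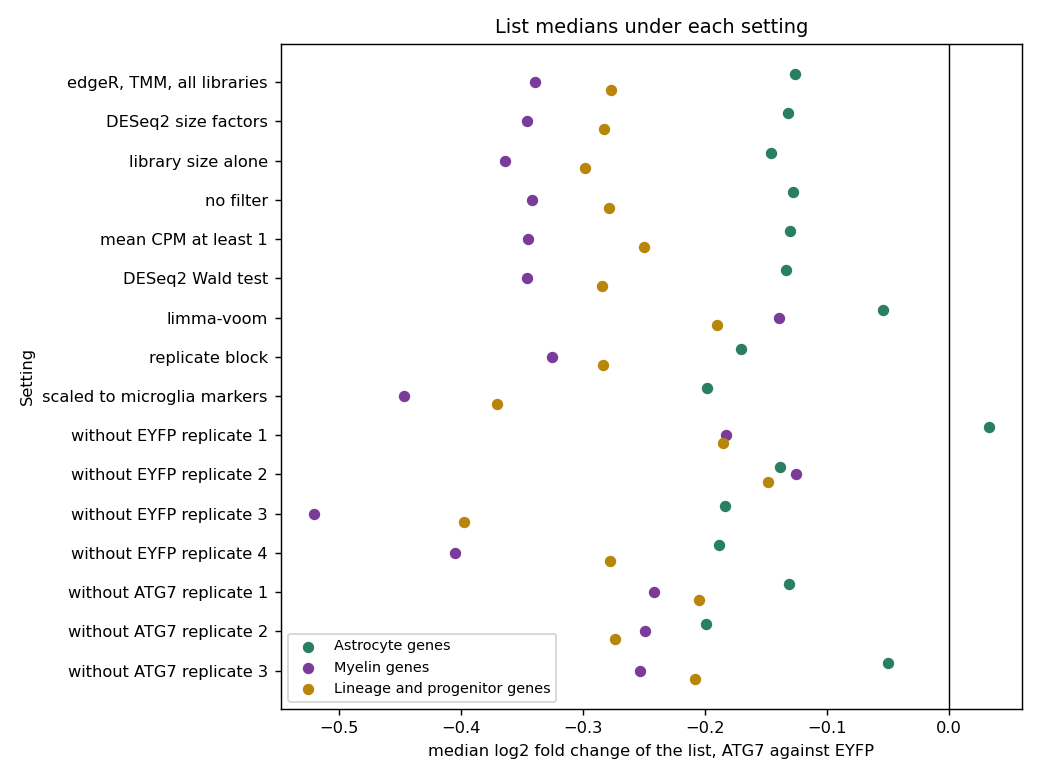
Median log2 fold change of the 3 sets of genes (x axis) under each setting (rows); green, astrocyte genes; purple, myelin genes; gold, lineage and progenitor genes. All medians are negative except that of the astrocyte genes without EYFP 1, at 0.03.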

How the data were processed

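The authors deposited 1 table of raw counts per gene with 7 columns, each matched to a library by name (0 unmatched). The submitters' processing notes list fastp 0.20.1, HISAT2 2.0.5, featureCounts and the GRCm38 (mm10) build; their settings, the strand and the annotation release are not given in the sources used here. Symbols, positions and exon lengths came from GENCODE M21, which matched 55141 of 55401 identifiers, and upstream sequences from RefSeq.

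Counts were tested as deposited with edgeR 4.0.16 (quasi-likelihood, robust, TMM, filterByExpr, two-sided, Benjamini-Hochberg over 19199 genes) in R 4.3.3, over all 7 libraries with no covariate. The SE of a log2 fold change was its size over the root of edgeR's F statistic; log2 CPM used a prior count of 2. DESeq2 1.42.0, limma 3.58.1 (voom with quality weights), other scalings and filters, a replicate block and leaving out each library were alternatives. The code was tested on simulated data.

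Libraries of 1 group differed by more than sampling noise (chi-square per degree of freedom 20.4 to 44.5), and totals per library gave p = 0.286 between groups in a two-sided exact permutation test. No molecular identifiers are mentioned, so floors cover counting error only. The members and lists were chosen with earlier results of these data known. Named are all 29 members, of each further list the passing genes (at most 5) or the one with the smallest p, the most abundant gene of marker lists, and Atg7; any other gene was chosen after its values were seen.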

Additional observations from a re-analysis of the deposited data

How the results depend on the processing

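The number of genes that differed over the whole table was 145 (132 higher, 13 lower) as reported, 297 with no filter (234 higher, 63 lower), 572 with DESeq2 (404 higher, 168 lower), 45 (42 higher, 3 lower) when scaled to the microglia markers, a setting chosen after seeing the data, and between 28 (without ATG7 2) and 277 (without EYFP 1) when 1 library was left out. It was also moved by over 1.5 times without EYFP 2 (94), without EYFP 4 (30) and without ATG7 3 (30). DESeq2 called 1 astrocyte gene, Slc7a10. With the replicate number as a block edgeR called 0 genes (1256 at an unadjusted p under 0.05), 0 of the 29 and 0 reactive astrocyte genes. The labels do not say whether the numbers pair libraries, and EYFP 4 has no ATG7 library of its number. With 7 libraries the block leaves little from which to estimate spread. Deviations of same-numbered libraries correlated at -0.0609, -0.182 and 0.0664, and EYFP 1 correlated best with ATG7 2. So few correlations cannot settle whether same-numbered libraries share a batch. Small fold changes turned: Slc1a2 0.30, Ntsr2 0.26, Mal 0.083 and Olig1 0.26 with limma-voom, Slc1a3 -0.048 with the replicate block, and Slc1a3 -0.0098, Cnp -0.0116 and Sox10 -0.0195 when scaled to the microglia markers. Over the libraries left out, the log2 fold change ranged from -0.51 to 0.29 for Slc1a2, from -0.060 to 0.17 for Slc1a3, from -0.27 to 0.037 for Gja1, from -0.053 to 0.59 for Gjb6, from -0.17 to 0.034 for S100b, from -0.36 to 0.27 for Ntsr2, from -0.17 to 0.070 for Mlc1, from -0.14 to 0.060 for Mag, from -0.00103 to 0.19 for Cnp, from -0.12 to 0.17 for Mal, from -0.14 to 0.35 for Ugt8a, from -0.30 to 0.24 for Olig1 and from -0.13 to 0.30 for Sox10. For these 13 genes the cause was not tested. Of the other 16 members 14 moved by over 1.5 times without some library; beside those given above, the ranges were 0.083 to 0.53 for Gfap, 0.075 to 0.35 for Aqp4, -0.39 to -0.21 for Aldh1l1, -0.22 to -0.036 for Sox9, -0.57 to -0.17 for Cldn11, -0.53 to -0.13 for Ermn, -0.47 to -0.098 for Olig2 and -0.73 to -0.27 for Pdgfra. The astrocyte median ranged from -0.20 to 0.03, the myelin median from -0.52 to -0.13 and the progenitor median from -0.40 to -0.15. Counts of 17 to 59 reads limit Enpp6 and Olig2.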

Other observations

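Other glial and neuronal transcripts were set beside Mobp and Bcas1 after their values were seen. Camk2a, a kinase of excitatory neurons, was at 111, 41.3, 4.83 and 8.78 CPM in EYFP 1 to 4, and at 9.89, 28.2 and 8.64 CPM in ATG7 1 to 3. Its range of 22.9 times was larger than that of Mobp, the libraries EYFP 1, EYFP 2 and ATG7 2 were again the highest 3, and the groups overlapped (log2 fold change -1.39, SE 1.25, edgeR adjusted p = 0.747). The cause of this shared order was not tested.

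Glul, a glutamine synthetase listed here as an astrocyte gene, and Trf, the iron carrier of oligodendrocytes and choroid plexus, had narrow ranges. Which cells gave the RNA of either in this fraction was not tested. Glul was at 1399, 1357, 1496 and 1229.6 CPM in EYFP 1 to 4, and at 1265, 1233 and 1288 CPM in ATG7 1 to 3 (log2 fold change -0.12, SE 0.0910, edgeR adjusted p = 0.676). Trf was at 1232, 1496, 1304 and 1263 CPM in EYFP 1 to 4, and at 1164, 1294 and 1410.1 CPM in ATG7 1 to 3 (log2 fold change -0.04, SE 0.103, edgeR adjusted p = 0.929). Neither showed the order of Mbp or Slc1a2, and the highest library was 1.22 times the lowest for Glul and 1.29 times for Trf.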
